A study of Mus musculus with 6 samples.

Results

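The replication-dependent histone genes of the mouse lie for the most part in 3 clusters, the proximal and the distal Hist1 cluster on chromosome 13 and the Hist2 cluster on chromosome 3. DNA methylation was described here in every window of the deposited methylation table that overlapped chr13:21710000-22050000 (proximal Hist1), chr13:23530000-23770000 (distal Hist1) or chr3:96235000-96275000 (Hist2) of build GRCm38. Windows entered by position alone, which gave 109 of 359192 windows, 62 in proximal Hist1, 39 in distal Hist1 and 8 in Hist2. The intervals themselves were set with earlier results of these data known. A window is a stretch that the authors set to hold 100 CpG cytosines, both strands counted, and its value is the percent of CpG methylation. The 109 windows covered 0.567 Mb, and their lengths ran from 541 to 25597 bp with a median of 4509 bp.

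The libraries came from E14TG2a mouse embryonic stem cells (mESCs), an established line of the 129/Ola strain at passages 5-28, grown on gelatin in serum and LIF. Cells were given a 10 min pulse of the thymidine analogue EdU, fixed, and sorted by EdU and by DNA content (propidium iodide) into G1 and G2/M populations, with 3 libraries per phase numbered replicates 1 to 3. As described, G1 and G2/M cells shared line, medium, pulse and library preparation, and the sorted phase is the only difference given. Methylation was read by enzymatic methyl-seq (EM-seq), which protects methylated and hydroxymethylated cytosines alike, so that both count as methylated. Per the methods, a window was kept only if at least 1 in 5 of its CpGs was observed in every library compared. The table gives percentages with no read counts, so the depth behind a value beyond that minimum is unknown and no counting interval was set.

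Histone proteins package DNA, and cells must make large amounts of them while DNA is copied. The genes of the clusters encode the linker histone H1, which binds between nucleosomes, and the core histones H2A, H2B, H3 and H4, which form the nucleosome. They are short, mostly without introns, and are transcribed together in S phase from CpG-rich promoters. Their mRNAs end in a stem-loop instead of a poly(A) tail, and many copies encode nearly identical proteins. DNA methylation at CpG-rich promoters goes with silencing, whereas most CpGs elsewhere in the genome are methylated.

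The GENCODE annotation placed 59 protein-coding histone genes in the 3 clusters, 23 in proximal Hist1, 29 in distal Hist1 and 7 in Hist2. In Hist2 only the start of Hist2h3c1 lay in a window, so its 44.3% is the only value at a start there. The Hist2 genes Hist2h2ab, Hist2h2ac and Hist2h2be lie just before the interval and are not members, and their starts were in windows at 3.21% (Hist2h2ab) and 5.41% (shared by Hist2h2ac and Hist2h2be). The 250 bases upstream of 6 histone genes are shown because their start-site windows are the lowest pair of each Hist1 cluster, the highest of distal Hist1 (Hist1h1t) and the only one of Hist2. A start-site window is a window that holds the annotated start of at least 1 histone gene. Sequences are from RefSeq on GRCm38.p6, run 5′ to 3′ on the gene's strand, and have each CpG in capitals. Of the 59 histone genes, 55 had a promoter sequence there, all but Hist1h2bc, Hist1h3a, Hist1h3f and Hist2h4.
Hist1h4h (RefSeq H4c8), chr13:23530794-23531043, plus strand: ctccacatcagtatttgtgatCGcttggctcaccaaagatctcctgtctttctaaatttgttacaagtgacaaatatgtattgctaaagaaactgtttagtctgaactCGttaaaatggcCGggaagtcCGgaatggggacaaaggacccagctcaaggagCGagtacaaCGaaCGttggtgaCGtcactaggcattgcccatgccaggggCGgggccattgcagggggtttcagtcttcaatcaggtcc
Hist1h3d (RefSeq H3c4), chr13:23575513-23575762, plus strand: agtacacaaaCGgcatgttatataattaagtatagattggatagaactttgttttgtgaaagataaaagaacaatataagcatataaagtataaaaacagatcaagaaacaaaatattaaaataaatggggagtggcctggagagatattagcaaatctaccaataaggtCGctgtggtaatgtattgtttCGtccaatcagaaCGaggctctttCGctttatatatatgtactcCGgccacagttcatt
Hist1h4i (RefSeq H4c9), chr13:22041363-22041612, minus strand: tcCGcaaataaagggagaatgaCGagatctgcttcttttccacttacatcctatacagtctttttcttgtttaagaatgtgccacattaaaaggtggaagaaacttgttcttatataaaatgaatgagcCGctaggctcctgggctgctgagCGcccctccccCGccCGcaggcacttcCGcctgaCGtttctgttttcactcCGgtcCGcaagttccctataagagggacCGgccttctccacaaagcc
Hist1h1b (RefSeq H1f5), chr13:21780626-21780875, minus strand: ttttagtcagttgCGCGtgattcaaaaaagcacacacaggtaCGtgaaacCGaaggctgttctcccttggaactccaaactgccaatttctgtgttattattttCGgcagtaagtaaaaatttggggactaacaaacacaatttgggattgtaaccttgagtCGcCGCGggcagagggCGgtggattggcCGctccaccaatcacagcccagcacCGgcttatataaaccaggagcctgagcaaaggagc
Hist1h1t (RefSeq H1f6), chr13:23695561-23695810, plus strand: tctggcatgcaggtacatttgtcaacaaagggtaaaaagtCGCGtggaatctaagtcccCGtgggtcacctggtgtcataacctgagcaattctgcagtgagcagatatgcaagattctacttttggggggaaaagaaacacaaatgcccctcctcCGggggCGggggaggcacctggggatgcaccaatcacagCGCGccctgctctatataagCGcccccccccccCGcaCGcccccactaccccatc
Hist2h3c1 (RefSeq H3c14), chr3:96246435-96246684, plus strand: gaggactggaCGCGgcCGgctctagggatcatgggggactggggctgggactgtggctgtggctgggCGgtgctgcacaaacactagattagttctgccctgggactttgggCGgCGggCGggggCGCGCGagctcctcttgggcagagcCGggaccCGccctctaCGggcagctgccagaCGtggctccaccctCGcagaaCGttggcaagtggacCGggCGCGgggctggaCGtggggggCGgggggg
The windows that hold these starts were at 0% (Hist1h4h), 0% (Hist1h3d), 0.776% (Hist1h4i), 1.42% (Hist1h1b), 25.1% (Hist1h1t) and 44.3% (Hist2h3c1) as means of 6 libraries. The Hist1h1b stretch leaves its start-site window and runs into the neighbouring one, which was at 5.28%. The stretches held 9, 6, 11, 11, 10 and 21 CpGs in the same order. Over the whole start-site windows the density was 60.5, 40.3, 39.9, 42.3, 18.5 and 36.8 CpGs per kb in that order. These 6 genes were picked by level or coverage, so no relation between CpG number and methylation is read from them.

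The promoter sequences also carried the short motifs known from histone genes. Over 300 bases per start (250 upstream and 50 downstream), both strands searched and overlaps between motifs ignored, TATAAA was found in 30 of 56 histone promoters (53.6%) and in 13.6% of all 32851 RefSeq promoters. CCAAT was found in 48 of the 56 (85.7%) against 37.4% of all promoters. The octamer ATTTGCAT was found in 10 (17.9%) against 1.74%, and these were 6 of 15 H2B and 4 of 14 H2A promoters. CCAAT was present in every H1, H2A, H2B and H3 promoter searched but in only 3 of 11 H4 promoters. The median number of CpGs in these 300 bases was 12 for the histone genes and 7 for all promoters.

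Methylation of the clusters was low beside the rest of the genome in every library. The mean over the 109 windows was 33.6%, 32.6% and 36.6% in G1 replicates 1 to 3 and 31.4%, 34.8% and 37.3% in G2/M replicates 1 to 3. All other windows averaged from 60.8% to 69.2% in the G1 libraries and from 60.2% to 68.5% in the G2/M libraries. The groups of values did not overlap, and within a library the clusters lay 29.6 ± 2.52 percentage points (SD, n = 6) below the other windows. All 6 libraries showed this direction (two-sided exact sign-flip test over libraries, p = 0.03125, the smallest it can give). This test takes the 6 libraries as independent. With libraries of the same number counted as 1 pair, the exact p for this difference and for that of the start-site windows is 0.25, the smallest that 3 pairs can give.

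The shortfall was spread over levels and was not a matter of unmethylated windows alone. Of the 109 windows, 21 (19.3%) had a mean under 10%, 52 (47.7%) lay from 10% to 50%, and 36 (33.0%) were at 50% or more. Over the whole table these shares were 2.13%, 10.3% and 87.6%. The median was 31.6% in the clusters and 68.1% over all windows. The highest windows of the clusters, 74.2% in proximal Hist1 (chr13:21949523-21954959) and 76.3% in distal Hist1 (chr13:23633086-23643872), were above that genome median. The distal Hist1 window held 115 CpG dinucleotides, and 49.2% of its 75-base stretches occurred elsewhere on the assembled chromosomes. The highest window of Hist2 (chr3:96227230-96235229) reached 60.1%, but most of its length lies before the interval. The highest wholly inside (chr3:96251604-96257571) was at 57.5%. The lowest window of proximal Hist1 (chr13:22020408-22022232) was at 0.425% and holds a tRNA gene but no histone start. The lowest of distal Hist1 included the Hist1h4h window at 0%, and the lowest of Hist2 was at 17.2% (chr3:96240400-96244218).

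**Figure D1:**
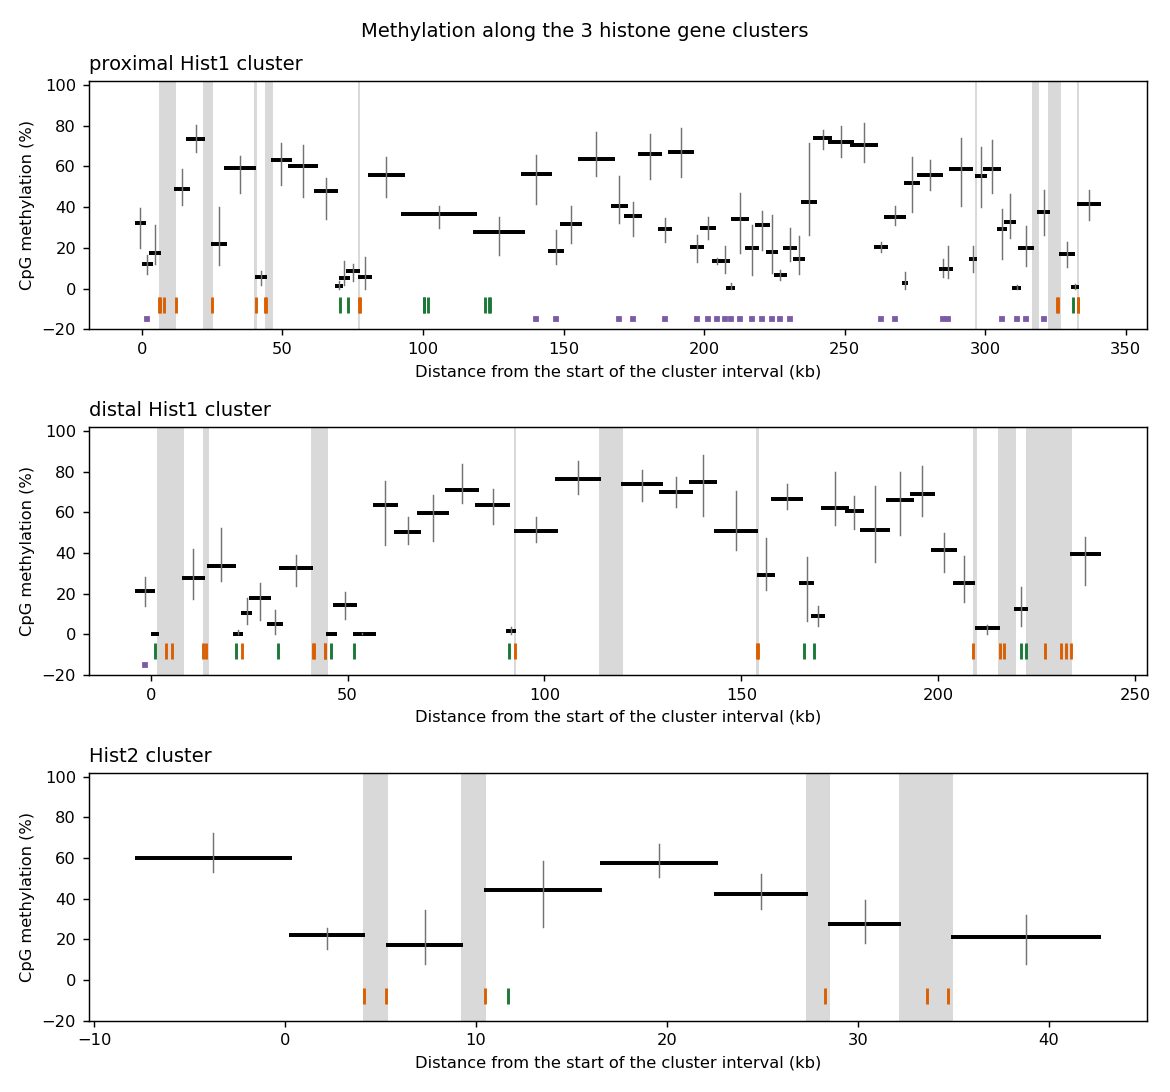
CpG methylation (%) against distance from the start of each cluster interval (kb). Horizontal bars are windows at the mean of 6 libraries, thin vertical lines span the 6 libraries, grey bands are gaps of at least 40 CpGs with no window, ticks mark histone gene starts inside a window (green) or outside any window (orange), and purple squares mark windows with a tRNA gene. Low bars sit beside histone starts in distal Hist1, 39 of the 59 starts are orange, and the tRNA squares fill the middle of proximal Hist1.

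The histone gene starts that the table covers were on average less methylated than the rest of the clusters. Their windows were also denser in CpG, with a median of 28.6 CpGs per kb against 11.1 in the other cluster windows. Whether the difference holds at like density was not tested. The 15 start-site windows, which hold 20 starts, averaged 8.64%, 14.7% and 13.5% in G1 replicates 1 to 3 and 11.1%, 12.8% and 14.2% in G2/M replicates 1 to 3. The 94 other cluster windows averaged between 34.7% and 41.0% in the 6 libraries, so no library overlapped. The within-library difference was -25.4 ± 2.87 percentage points (SD, n = 6), negative in 6 of 6 libraries (two-sided exact sign-flip test, p = 0.03125). Taking every window that overlaps a histone gene in place of the start-site windows made the difference smaller, at -16.2 percentage points (exact sign-flip test, p = 0.03125). Of the start-site windows, 9 of 15 were under 10% and 0 of 15 reached 50%. Counted by starts, 9 of 20 were under 10% and 11 of 20 were at 10% or more. Among all 14976 windows with the start of a protein-coding gene, 18.6% were under 10% and 47.4% were at 50% or more. That set had a median of 13.5 CpGs per kb, so it is not matched in density to the histone start-site windows.

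**Figure D2:**
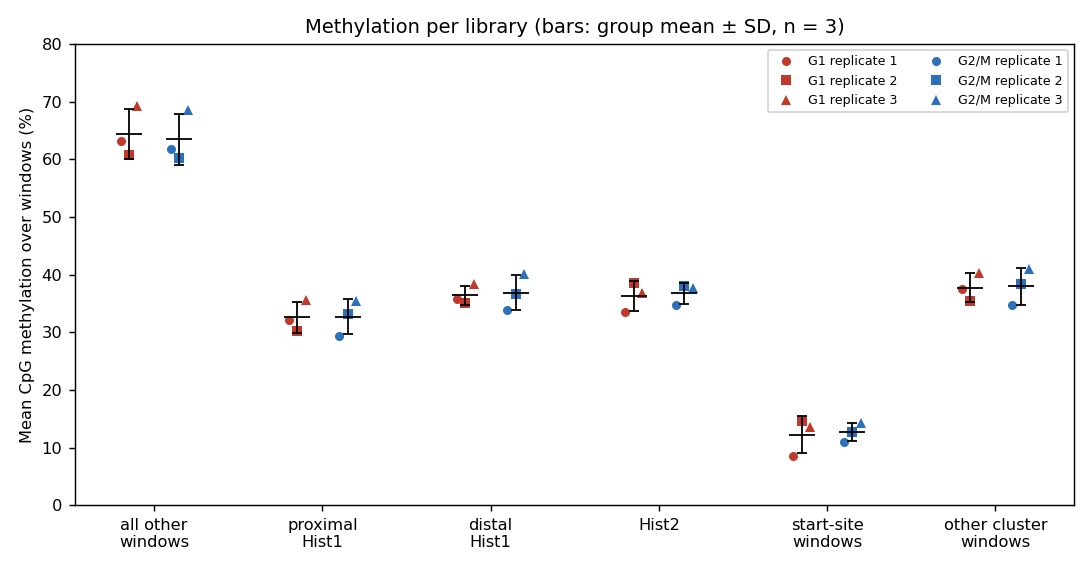
Mean CpG methylation over windows (%) for all other windows, the 3 clusters, the start-site windows and the cluster windows without a histone start. Points are libraries, shaped by replicate number (G1 red, G2/M blue), and bars give the group mean ± SD (n = 3). The cluster means lie between 29.4% and 40.1% in every library, under the other windows, and the start-site windows lie lower still.

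Linker histone genes gave both low and intermediate levels. Of the 6 H1 genes, the starts of Hist1h1b and Hist1h1t lay in a window. The Hist1h1b window (chr13:21779218-21780660) was at 0%, 0% and 1.82% in G1 against 0%, 3.85% and 2.86% in G2/M. Hist1h1t, the H1 gene of the male germ line, had 28.8%, 26.6% and 32.3% in G1 against 18.5%, 6.52% and 38.1% in G2/M (chr13:23695032-23698056). These values made it the highest start-site window of distal Hist1, and G2/M replicate 2 stood far below the other libraries. The Hist1h1a, Hist1h1c, Hist1h1d and Hist1h1e starts lay in no window. Windows that cover part of their gene bodies were at 2.96% for Hist1h1c (chr13:23739727-23745101), 10.2% for the first part of Hist1h1d (chr13:23553399-23555339), 1.57% for Hist1h1e (chr13:23620713-23622251) and 39.6% for Hist1h1a (chr13:23763917-23770744, which also holds the start of Trim38).

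H4 genes were the class with the largest share of starts in a window, 7 of 12. The Hist1h4h window (chr13:23530683-23531690) was listed at 0% in all 6 libraries. Hist1h4f had 0%, 0% and 2.08% in G1 and 0% in each G2/M library (chr13:23551337-23552906), and Hist1h4i had 0%, 2.38% and 0% in G1 against 2.27%, 0% and 0% in G2/M (chr13:22041217-22042821). These 3 H4 windows were therefore close to unmethylated in both phases. Hist1h4d was higher, at 7.32%, 20.7% and 15.4% in G1 against 12.0%, 9.88% and 20.8% in G2/M, in a window that runs mostly upstream of the gene (chr13:23576923-23581836). The next window, which takes in the rest of the gene, had a mean of 0.139%.

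H3 starts lay in a window for 5 of 12 genes. The Hist1h3d window (chr13:23575151-23576889) was at 0% in all 6 libraries. Hist1h3e had a mean of 5.28% and Hist1h3i of 8.56%, each with libraries of both phases intermingled. Hist2h3c1 stood apart at 25.9%, 52.0% and 48.6% in G1 against 36.8%, 58.6% and 44.1% in G2/M (chr3:96245527-96251512). It was the highest start-site window of the 3 clusters, and its span of 5986 bp also takes in most of the Hist2h2aa1 gene.

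H2A and H2B starts were covered least, with 3 of 14 and 3 of 15 in a window. Hist1h2be had a mean of 1.57% at its annotated start, which belongs to a long transcript that begins beside Hist1h1e. At its shorter RefSeq transcript the window was listed at 0% in all 6 libraries (chr13:23585627-23586778). Hist1h2ab shared a window with the start of Hist1h3b, at 7.02%, 23.0% and 17.3% in G1 against 4.03%, 14.1% and 10.0% in G2/M. The other H2A and H2B starts in a window lay in a duplicated stretch of proximal Hist1. There, Hist1h2bq, Hist1h2ao and Hist1h4m shared a window at 29.9%, 38.9% and 36.4% in G1 against 35.5%, 37.2% and 40.5% in G2/M (chr13:21802889-21828485). Hist1h4n, Hist1h2ap and Hist1h2br shared the next at 16.5%, 27.5% and 28.8% in G1 against 32.9%, 35.3% and 26.3% in G2/M (chr13:21828486-21845627). These windows were the highest at histone starts in proximal Hist1.

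**Figure D3:**
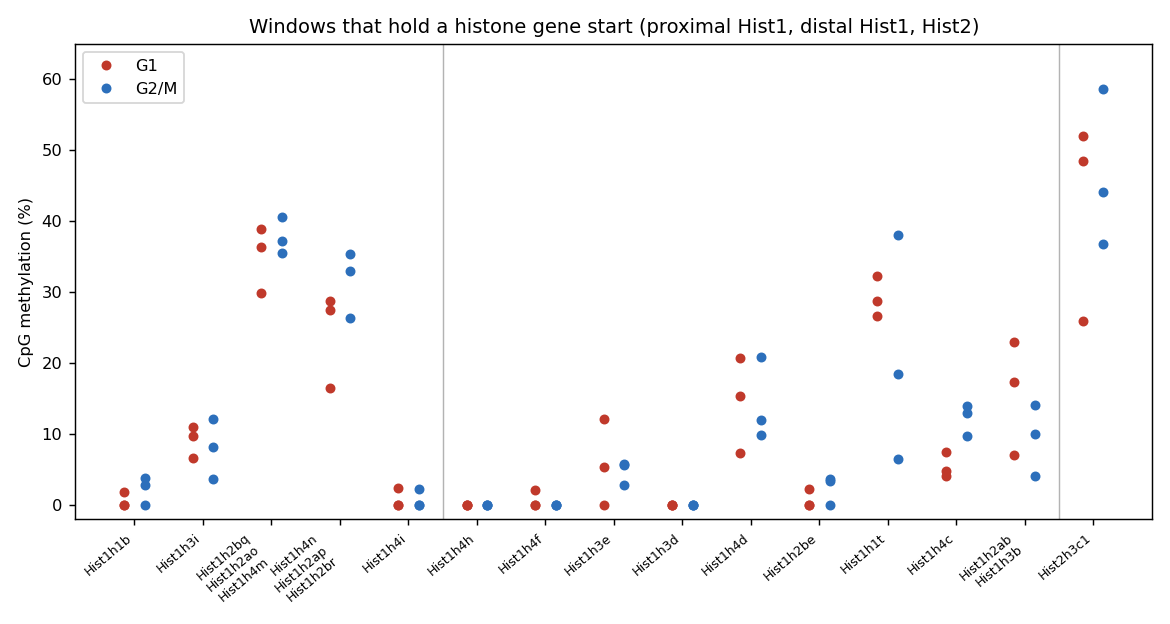
CpG methylation (%) of the 15 windows that hold a histone gene start, with each of the 3 G1 libraries (red) and 3 G2/M libraries (blue) as a point; vertical lines separate proximal Hist1, distal Hist1 and Hist2. Of the 15 windows, 9 have means under 10%, and the duplicated stretch of proximal Hist1, Hist1h1t and Hist2h3c1 stand above them.

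The windows of the duplicated stretch differ from the others in what they can measure. They held 595 and 367 CpG dinucleotides, whereas most windows hold about 50. Of their 75-base stretches, the length of a read, 67.7% and 84.1% occurred elsewhere on the assembled chromosomes. The 6 histone genes in them, over at most the first 1000 bp from the start, were 89.0% to 100% repeated. Which CpGs of such a window gave its percentage is not in the table, and the part of the repeats in these higher values was not tested. Hist2h3c1 lay in a window of 220 CpGs, 27.8% repeated. Leaving out the 9 cluster windows with more than 70 CpGs moved the difference between start-site and other windows from -25.4 to -30.7 percentage points.

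Most histone starts lay where the table has no window. A window held 20 of the 59 starts (33.9%), 9 in proximal Hist1, 10 in distal Hist1 and 1 in Hist2, against 74.4% of all 21938 protein-coding genes. The other 39 fell in gaps between windows. Of these, 38 lay in gaps that themselves held at least 40 CpGs, enough for a window, and Hist1h1d lay in a short gap with 0 CpGs. In all, 22 such gaps held from 51 to 313 CpGs, and 19 of them held a histone start. The largest (chr13:23752270-23763916) took in the starts of Hist1h4b, Hist1h4a, Hist1h3a and Hist1h1a. Another (chr13:21716028-21722220) took in Hist1h2bl, Hist1h2ai, Hist1h3h and Hist1h2bm.

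These gaps made up a larger part of the clusters than of the genome and were rich in CpG. They held 23.7% of the CpGs of the clusters, 14.5% in proximal Hist1, 34.4% in distal Hist1 and 33.7% in Hist2, against 7.59% over all chromosomes. CpG density was 33.4 per kb in the gaps and 12.7 per kb in the windows of the clusters. Among genes with at least 50 CpGs in the 1 kb around the start, 16 of 49 histone genes of the clusters (32.7%) and 53.4% of the 9379 other genes had a start in a window. Repeated 75-base stretches made up a median of 11.7% of a gap and 0.888% of a window. Over the histone genes, at most the first 1000 bp of each, the median was 46.1% for those in gaps and 57.0% for those in windows. By cluster the order differed, with 72.5% in gaps and 91.3% in windows for proximal Hist1. It was 35.5% and 26.3% for distal Hist1, and 71.2% and 65.6% for Hist2, in the same order. How the mapping filter, the minimum of observed CpGs, the removal of reads in outlier regions and CpG density shaped the gaps was not tested. The low levels above hold for the covered starts only.

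Within the clusters, methylation fell as CpG density rose. In windows with under 10 CpGs per kb the median was 59.9% over 35 cluster windows and 68.3% over the other windows of that density. In windows from 10 to 20 CpGs per kb it was 25.4% over 47 cluster windows and 69.3% elsewhere. From 20 CpGs per kb upward it was 9.37% over 27 cluster windows and 29.1% elsewhere. The cluster windows of middle density thus stood furthest from windows of like density in other places. Spearman's rho between density and methylation was -0.796 over the 62 proximal Hist1 windows, -0.802 over the 39 distal Hist1 windows and -0.524 over the 8 Hist2 windows, and -0.0361 over the whole table. Pearson's r with log2 density was -0.763, -0.782 and -0.460 in the clusters, in the same order, and -0.391 over the whole table, so by this measure a falling relation was present over all windows too. These are correlations across neighbouring windows of the same 6 libraries, which are not independent, and they serve as a description.

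**Figure D4:**
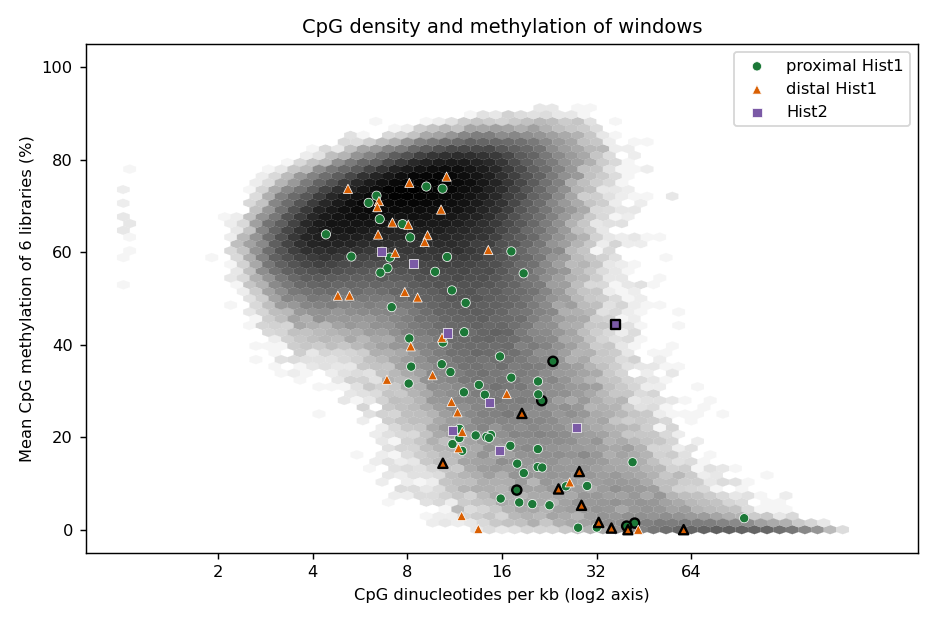
Mean CpG methylation of 6 libraries (%) against CpG dinucleotides per kb (log2 axis). Grey shading counts all windows of the table on a log scale, coloured symbols are the 109 cluster windows, and black outlines mark start-site windows. Cluster windows of 10 to 20 CpGs per kb lie mostly under the bulk of the grey windows, with medians of 25.4% and 69.3%.

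Methylation followed distance from a histone start over a short range only. The 32 windows within 2500 bp of a histone start, but without one, had a median of 27.6%, and the 14 windows farther off, up to 10000 bp away, had 56.6%. The 26 windows between 10000 and 50000 bp had 53.6%. Beyond 50000 bp the median fell back to 24.8% over 22 windows, 14 of which held a tRNA gene.

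That low stretch far from histone genes lies in the middle of proximal Hist1, where many tRNA genes are annotated. The tRNA genes were looked at after the values had been seen, so the following is a description with no test. Proximal Hist1 held 33 tRNA genes, 32 of them in a window, against 1 in distal Hist1 and 0 in Hist2. The 25 tRNA windows had means of 20.5%, 19.9% and 24.9% in G1 against 18.5%, 24.6% and 26.4% in G2/M. The 32 windows of proximal Hist1 with neither a tRNA gene nor a histone start had means from 40.2% to 47.0%, so the libraries of the 2 sets did not overlap. The tRNA windows were also denser in CpG, with a median of 14.6 CpGs per kb against 10.9 in the windows with neither. Whether the difference holds at like density was not tested. Outside the clusters, the 239 windows with a tRNA gene had a median of 25.2%, against 20.1% for the proximal Hist1 tRNA windows. By library means they lay higher, from 31.0% to 35.7%, than the proximal Hist1 tRNA windows in every library. The tRNA windows outside the clusters had a median of 17.4 CpGs per kb. None of the tRNA windows held a histone start.

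The other protein-coding genes of the clusters had start-site windows above the median of the histone genes, 12.6% over the 20 with a start in a window. All 5 had a start in a window. Zfp184, a zinc finger gene, was lowest at 14.3 ± 6.57% (SD, n = 6), and Prss16, a thymus-specific serine protease gene, was highest at 55.4 ± 11.4%. The shortest window of the clusters (chr13:21981213-21981753), just inside Pom121l2, was at 2.48%.

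The 3 clusters differed little in mean level. Proximal Hist1 was below distal Hist1 in 6 of 6 libraries, by 3.99 ± 0.845 percentage points (SD, n = 6; two-sided exact sign-flip test, adjusted p = 0.046875 over 3 pairs of clusters by Benjamini-Hochberg). It was below Hist2 in 6 of 6 libraries as well, by 3.93 ± 2.81 percentage points (exact sign-flip test, adjusted p = 0.046875). Distal Hist1 and Hist2 differed by 0.0641 ± 2.37 percentage points, with 3 libraries on each side (exact sign-flip test, adjusted p = 0.90625).

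These orders depended on which windows entered. Over the windows without a histone start, proximal Hist1 lay 11.2 percentage points below distal Hist1, with tRNA genes in 25 of its 57 windows. Over start-site windows it lay 7.44 percentage points above distal Hist1 (15.0% against 7.56%), and these windows include the duplicated stretch. With only start-site windows of at most 70 CpGs, proximal Hist1 was again lower, by 4.26 percentage points. Under weights by window length proximal Hist1 lay 1.88 percentage points above Hist2, so the order of that pair is not settled. The difference between proximal and distal Hist1 did not pass the test by medians or over windows wholly inside the intervals (exact sign-flip test, adjusted p = 0.09375 for both), and was -9.82 percentage points without windows at 0%. That between proximal Hist1 and Hist2 passed by none of these (adjusted p = 0.1875, 0.1875 and 0.65625). With libraries of the same number as pairs, neither passed (exact sign-flip test, adjusted p = 0.375 for both). Distal Hist1 lay 36.8 percentage points below Hist2 over start-site windows, where Hist2 has the Hist2h3c1 window alone, and 9.90 above it over the other windows.

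The phases were compared because methylation copied late after replication could still differ between cells before and after mitosis. In proximal Hist1 the G1 mean was 32.6 ± 2.71% (SD, n = 3) and the G2/M mean 32.7 ± 3.06%, a difference of -0.0514 percentage points (two-sided exact permutation test over 20 labelings, p = 1). In distal Hist1 the means were 36.4 ± 1.71% and 36.9 ± 3.10% (difference -0.496, exact permutation p = 0.9). In Hist2 they were 36.4 ± 2.58% and 36.8 ± 1.83% (difference -0.449, exact permutation p = 0.7). In each cluster the libraries of the phases overlapped, and the exact permutation test of 3 against 3 libraries cannot go below p = 0.1.

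Differences between libraries of the same number ran both ways. For proximal Hist1 they were 2.80, -3.05 and 0.0876 percentage points for replicates 1 to 3, and for distal Hist1 1.83, -1.54 and -1.78. Over all other windows they were 1.28, 0.641 and 0.699, each with G1 higher. The G1 minus G2/M difference of the clusters less that of all other windows was -1.11 percentage points (exact permutation test, p = 0.7). It was 0.0999 when G1 replicate 3 was left out and 0.707 when G2/M replicate 2 was, so no difference in the phase effect between the clusters and the rest of the genome was detectable. Start-site windows gave 12.3 ± 3.21% in G1 and 12.7 ± 1.59% in G2/M (exact permutation test, p = 0.9).

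**Figure D5:**
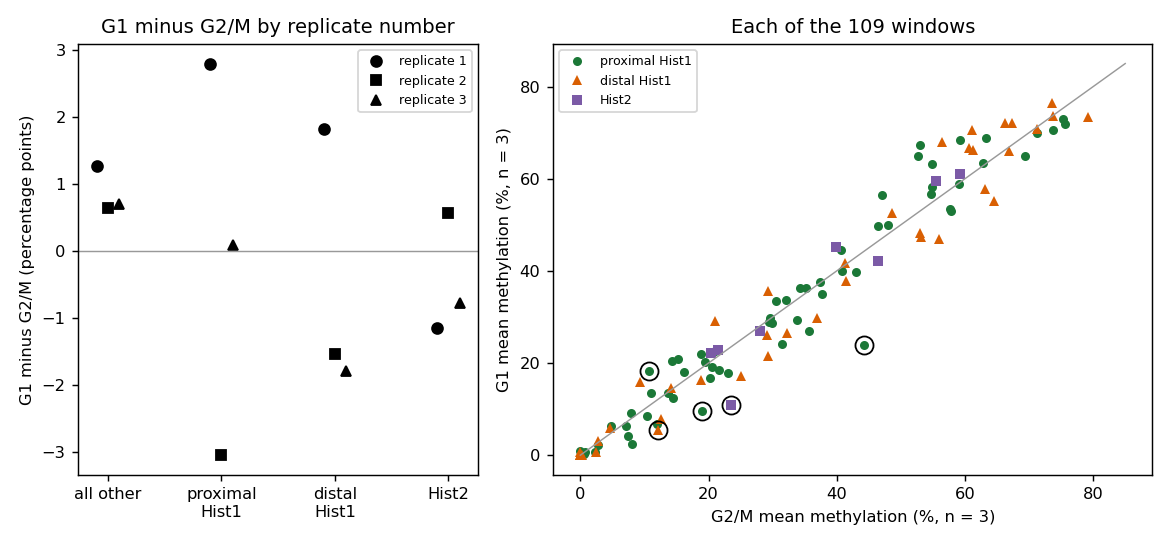
Left, G1 minus G2/M (percentage points) of the mean over windows for each replicate number, for all other windows and the 3 clusters. Right, G1 against G2/M mean methylation (%, n = 3) of each of the 109 windows, with the line of equality and circles around the 5 windows with an unadjusted limma p under 0.05; the cluster differences fall on both sides of 0 and most windows lie along the line.

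Window by window, no cluster window passed the test for a difference between phases. With limma on log ratios and Benjamini-Hochberg adjustment over all windows, 0 of 109 were called, against 0.00223% of the whole table (8 windows). At an unadjusted p under 0.05, 1 cluster window was higher in G1 (0.917%, share over all windows 1.36%) and 4 were higher in G2/M (3.67%, share over all windows 0.75%). All G1 libraries lay above all G2/M libraries in 2 cluster windows (1.83%, share over all windows 4.12%) and below them in 4 (3.67%, share over all windows 1.98%). Each of these counts rests on 1 to 4 windows.

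Among the cluster windows the smallest p belonged to the window with the start of Hist1h4c (chr13:23698124-23700643). It had 7.45%, 4.76% and 4.08% in G1 against 13.9%, 12.96% and 9.68% in G2/M (limma unadjusted p = 0.00371, adjusted p = 1), so the phases did not overlap. The next was a tRNA window of proximal Hist1 (chr13:21920355-21925185), with 26.1%, 17.7% and 27.8% in G1 against 46.8%, 46.8% and 39.3% in G2/M (limma unadjusted p = 0.00564, adjusted p = 1). The other 2 with an unadjusted p under 0.05 and higher G2/M values were named after their values were seen. The window with the start of Zfp184 had 11.8%, 9.68% and 7.14% in G1 against 14.8%, 25.8% and 16.4% in G2/M (limma unadjusted p = 0.0148, adjusted p = 1). The lowest Hist2 window had 8.14%, 9.62% and 14.8% against 34.5%, 13.8% and 22.2% (limma unadjusted p = 0.0249, adjusted p = 1). The phases did not overlap at Zfp184 and did in Hist2. In the direction of higher G1, a CpG-dense window within the Prss16 gene (chr13:22005064-22006264) had 18.97%, 15.2% and 21.0% in G1 against 7.89%, 8.54% and 15.9% in G2/M (limma unadjusted p = 0.036, adjusted p = 1). Here the phases overlapped. The next with higher G1 values (chr13:21762645-21771923, 57.1% repeated) had 67.3 ± 5.77% in G1 and 53.1 ± 12.8% in G2/M (limma unadjusted p = 0.0892, adjusted p = 1).

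Histone genes outside the 3 intervals were also low for the most part. All 8, among them the 3 Hist2 genes just before the Hist2 interval, had a start in a window, and 6 were under 10%, from 1.68% for Hist3h2a to 6.44% for Hist3h2ba. The pair above 10%, Hist1h2aa and Hist1h2ba of the male germ line, shared a window at 21.5 ± 11.2% (SD, n = 6). With Hist1h1t, all 3 listed histone genes of the male germ line were between 21.5% and 25.1%, values that rest on this shared window and that of Hist1h1t. Of 12 replacement histone genes, which are expressed outside S phase as well, 6 had a start in a window, from 1.24% for H2afv to 73.1% for the oocyte linker histone H1foo. None of the 6 passed the adjusted test between phases.

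Genes for histone gene transcription and mRNA 3′ processing were covered in 6 of 13 cases. Hinfp, which encodes a factor that binds H4 promoters, was lowest at 8.22 ± 5.19% (SD, n = 6). Slbp, which encodes the stem-loop binding protein, had 16.8 ± 8.51%, and Lsm10, a subunit of the U7 particle that cuts the mRNA, had 14.1 ± 5.65%. Zfp473, which encodes a protein of the U7 processing complex, was highest at 61.8 ± 5.22%. The Npat start, for the coactivator of histone transcription, lay in no window. Markers of the labelled cells were covered in 3 of 6 cases, with Nanog at 13.9%, Pou5f1 at 55.0% (in a long window, chr17:35394920-35583488) and Esrrb at 66.7%, and of the lineage genes Pax6 was at 16.4% and Sox17 at 41.9%. Methylation at these starts names no cell type.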

How the data were processed

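EM-seq libraries of sorted G1 and G2/M mESCs (3 per phase) were sequenced by the authors as 75-base paired reads. Per the methods and the submitters' notes, reads were trimmed (Trim Galore 0.6.4), mapped to GRCm38 with Bowtie2 through Bismark 0.22.1 and deduplicated, and reads of mapping quality under 20 were dropped. The methods also discard reads in outlier regions, set by raw counts above the median in 25 kb windows. The deposited table, made by the authors, holds percent methylation in windows of 100 CpG positions observed in the data, without counts, and the text reports windows it lists at 0% as such. A second set of deposited regions was not used here.

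Windows were joined to GENCODE vM21 genes and RefSeq GRCm38.p6 sequence of the same build. CpGs were counted on the reference, and 75-base stretches were called repeated when they occurred elsewhere on either strand. Libraries were grouped by their labels. Cluster means were compared between phases by exact permutation tests and within libraries by exact sign-flip tests, both two-sided. Single windows were tested with limma 3.58.1 (R 4.3.3) on log2((percent + 1)/(100 - percent + 1)) over the whole table, since the authors' logistic regression needs counts. The scripts were tested on simulated data. The intervals, gene lists and tests were chosen with earlier results of these data known. Named windows are the highest and lowest per cluster, the highest and lowest histone starts, all H1 genes and the smallest p values in each direction. Same-numbered libraries share only a number in the labels. The study speaks of matched replicates for these libraries without saying what they shared, so values by pair are given beside the main results. The methods call the triplicates biological. P-values measure the spread between these 6 libraries. Alternatives covered the replicate block, medians, length weights, cluster edges, windows at 0%, library centring, the scale and filter of the limma fit, and each library left out.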

Additional observations from a re-analysis of the deposited data

How the results depend on the processing

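Proximal, distal and Hist2 phase differences ranged from -1.69 to 1.33, -1.98 to 1.12 and -1.59 to 0.953 percentage points with 1 library left out, and that of the clusters less the other windows from -2.21 to 0.707. Medians turned Hist2 to 0.807, length weights turned proximal Hist1 to 0.179 and Hist2 to 0.123, and leaving out windows at 0% turned proximal Hist1 to 0.0275; none of these differences had passed a test. The clusters stayed below the other windows under all alternatives run, from -30.4 to -29.0 with 1 library left out, and start-site below other cluster windows, from -26.3 to -24.7. The latter was -16.2 with windows that overlap a histone gene, -18.5 without windows at 0%, -20.8 by length weights and -29.2 by medians, each past the threshold. With 5 libraries the exact test cannot go below p = 0.0625. Same-numbered libraries correlated by 0.0274, 0.0310 and 0.0549 in their deviations over all windows, each the highest for its libraries, and by -0.0453, 0.206 and 0.203 over the cluster windows. Over all other windows, G1 and G2/M levels were 63.1% and 61.9% (replicate 1), 60.8% and 60.2% (replicate 2), and 69.2% and 68.5% (replicate 3). Over the cluster windows they were 33.6% and 31.4%, 32.6% and 34.8%, and 36.6% and 37.3%. The labels do not say what a shared number means, so the pairing is not settled. Tests over 6 libraries take them as independent. With the replicate block the differences of the clusters and of the start-site windows keep their values of -29.6 and -25.4. Their exact sign-flip p is 0.25, the smallest 3 pairs can give. Those of proximal Hist1 from the other clusters were -3.99 and -3.93, past no threshold. Proximal minus distal Hist1 lost its call at -6.20 by medians and -4.46 for windows wholly inside, passed the threshold at -9.82 without windows at 0% and, turned, at 7.44 over start-site windows, and was -4.23 to -3.80 with 1 library left out. Proximal Hist1 minus Hist2 passed at -29.3 over start-site windows and lost its call at -6.23 by medians, 1.88 by length weights, -2.67 for windows wholly inside, -0.630 without windows at 0%, -1.27 without start-site windows, and it was -4.44 to -3.02 with 1 library left out. Distal Hist1 minus Hist2 was -0.0289 by medians and -0.415 to 0.784 with 1 library left out, and passed the threshold at -36.8 over start-site windows, at 7.50 by length weights, 9.19 without windows at 0% and 9.90 without start-site windows. For these changes the cause was not tested. The limma fit called 0 cluster windows at an adjusted p under 0.05 in every setting; at an unadjusted p it listed 2 of the 88 with means from 10% to 90% (2.30% of all windows in that fit), 9 with the replicate block (4.83% of all windows), and 4 to 7 with 1 library left out (1.49% to 3.76% of all windows). RefSeq starts, windows of at most 70 CpGs and other windows of at least 4.41 CpGs per kb were alternatives chosen after seeing the data. These kept every direction they were run on except as given above. The density limit is the lowest of the cluster windows and sets no upper bound, so CpG density was not matched. Depth is unknown, so low percentages cannot be told from 0.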
